A study of Oryza sativa with 2 samples.

Results

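The AAA-type ATPases described here are 28 genes of the rice leaf (Oryza sativa, cultivar Ilmi), out of 76131 rows in the deposited expression table. They were taken by their descriptions: a row entered if its description named an AAA-type ATPase or BCS1, and rows of short RNAs or with the words proteasome, DNA replication or NB-ARC stayed out. Of the 28, 24 are described only as carrying an AAA-type core domain, 2 as similar to an AAA-type ATPase family protein and 2 as similar to BCS1. Leaves of 2-week-old greenhouse seedlings were profiled by RNA sequencing in 2 groups of 1 library each. The first group carries PGD1:Roc10, a transgene in which a promoter labelled as a whole-body promoter drives Roc10, a homeodomain-leucine zipper transcription factor. The other is the nontransgenic control (NT). The labels name no other genetic change and no treatment in either group, and they do not say how many plants or transgenic lines a library holds.

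AAA-type ATPases use the energy of ATP hydrolysis to unfold, move or take apart proteins and protein complexes, mostly as rings of identical or related subunits. In budding yeast, BCS1 is an AAA protein of the inner mitochondrial membrane that carries the Rieske iron-sulfur protein across that membrane, a late step in the assembly of respiratory complex III. Plants hold a larger number of BCS1-like genes, and in Arabidopsis one of them encodes a protein of the outer mitochondrial membrane whose transcript responds to salicylic acid and other stress. The descriptions of the rice genes do not say where in the cell each protein acts or on which substrate.

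Levels are the deposited FPKM, which count fragments relative to transcript length in kilobases and to each 1000000 fragments mapped. Differences are PGD1:Roc10 minus NT on the log2(FPKM + 1) scale, where changes of low genes come out smaller than they are. Ratios are of plain FPKM. With 1 library per group there is no replicate check, no test was made, and how far plants of a group vary is unknown. In RNA from whole leaves, fewer cells of a type and less RNA per cell cannot be told apart. The libraries held 21866514 mapped read pairs for PGD1:Roc10 and 27683296 for NT. The number of fragments behind each FPKM is unknown. The 52 rows matched as leaf photosynthesis markers summed to 54584 FPKM in PGD1:Roc10 and 57270 in NT. Of these 52, 40 had a mean of at least 1 FPKM. Of the 40, 11 had the higher value in PGD1:Roc10, beside 10696 of all 21875 rows at that mean. Among the 40, 0 were 2-fold higher and 1 was 2-fold lower, beside 2.29% and 1.29% of all rows. Of 6 root marker rows 4 were listed at 0 in both libraries, and all 6 summed to 0.0740 FPKM in PGD1:Roc10 and 0.317 in NT. Of 7 meristem marker rows 4 were listed at 0 in both, and the sums were 139 and 113 FPKM, nearly all from the knotted-1-like OS08G0292900. The OSH10-like OS03G0673000 stood at 2.63 FPKM in PGD1:Roc10 and was listed at 0 in NT, and any part of such cells in the results below was not tested. The 63 rows matched by pollen or anther words, many of them for widespread allergen domains, summed to 3073 and 3301 FPKM. The name Roc10 stands in no symbol or description analysed here, so the transgene's own level was not analysed and cannot serve as a check of the labels.

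The AAA-type ATPases fell into a set that was much higher in PGD1:Roc10 and a set with small differences. On the log2(FPKM + 1) scale, 8 of the 28 genes had an at least 2-fold higher level in PGD1:Roc10, beside 1.4% of all 37645 rows other than short RNAs, and 0 were 2-fold lower, beside 0.68%. Together the 8 summed to 137 FPKM in PGD1:Roc10 and 29.8 in NT, a ratio of 4.61. The other 20 summed to 385 FPKM in PGD1:Roc10 and 377 in NT, a ratio of 1.02. The lowest difference in the first set was 1.14 and the highest in the second 0.29, with no gene between. The second set holds 7 genes below 1 FPKM in both libraries, where this scale cannot give a difference of 1. The gap also depends on the pseudocount. With a pseudocount of 5, OS06G0697500 of the first set had 0.31 and OS07G0192000 of the second 0.21.

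The background for these counts is the whole table. Of the 28 genes, 20 had a mean of at least 1 FPKM over both libraries, and 7 of these 20 were at least 2-fold higher, where 2.29% of all 21875 rows at that level were. At least 2-fold lower were 0 of the 20, where the background was 1.29%. A gene can reach a mean of 1 FPKM through the library in which it is high, as OS01G0297200 and OS03G0584400 did. Among the 18 genes with at least 1 FPKM in NT, 5 were at least 2-fold higher and 0 lower, beside 1.19% and 1.51% of all 21593 rows so selected. The median difference of the 20 genes was 0.18, and that of all 21875 rows was -0.0055. With the total FPKM of the libraries made equal, these medians moved to -0.0022 and -0.20, while the 7 counted genes stayed 7 and none became 2-fold lower. Genes with the higher value in PGD1:Roc10 then numbered 10 of the 20, and 14 of the 20 in the values as deposited. The share of FPKM held by short RNA rows was 31.0% in PGD1:Roc10 and 18.1% in NT. With the totals equalised over the other rows alone, the median of the 20 genes was 0.21.

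**Figure D1:**
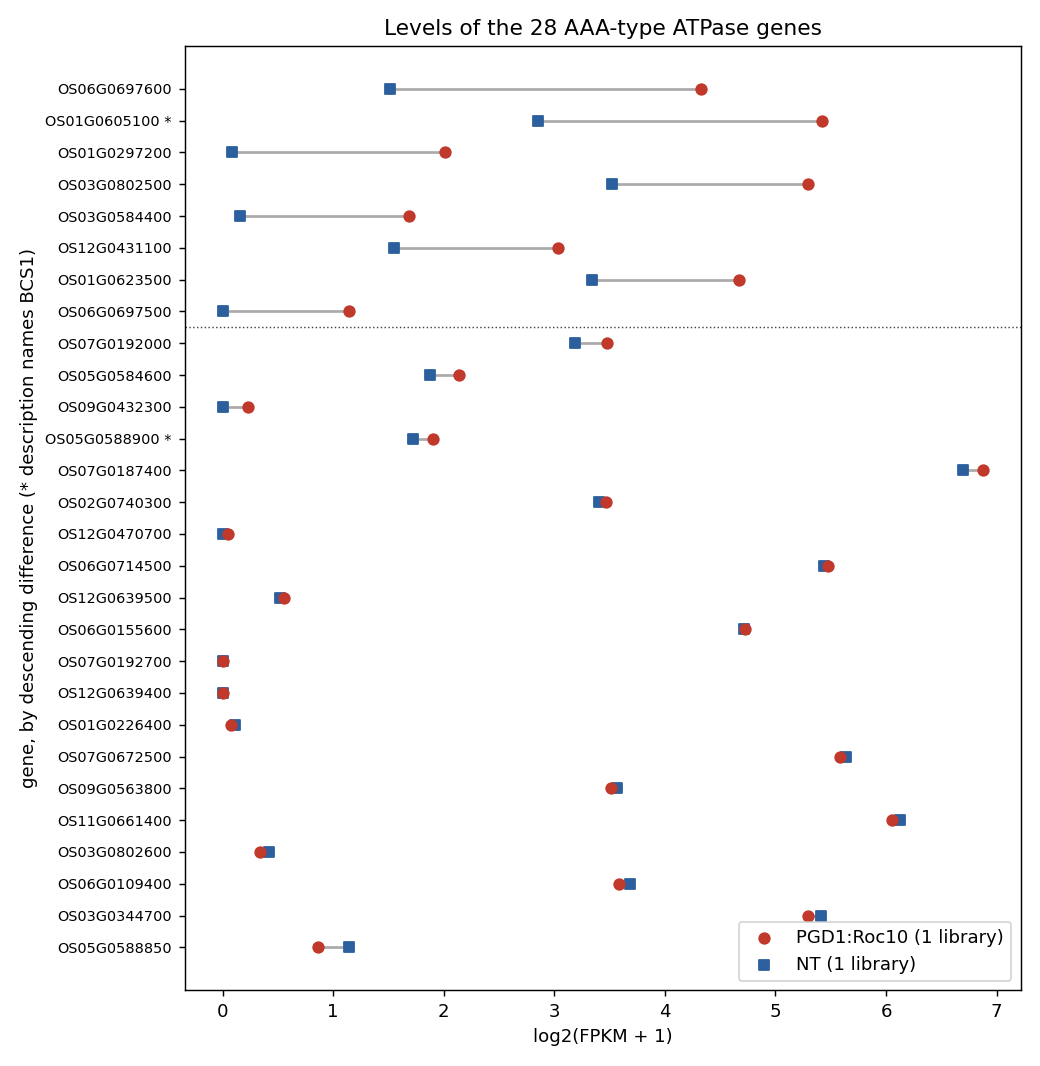
Level of each of the 28 AAA-type ATPase genes as log2(FPKM + 1) in PGD1:Roc10 (circles) and NT (squares), 1 library each, ordered by the difference; an asterisk marks the 2 genes described as BCS1-like. The 8 genes above the dotted line were at least 2-fold higher in the transgenic leaves, and the pairs of points of the 20 below it lie close together.

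The best-named member of the higher set is OS01G0605100 (chromosome 1, 23838813 to 23840798), described as similar to a BCS1 protein. It stood at 41.97 FPKM in PGD1:Roc10, against 6.24 FPKM in NT, a ratio of 6.72 and a log2 difference of 2.57. That difference ranked 120 among the 21875 rows. In the authors' deposited table it was called significant with q = 0.0111. A hypothetical gene of the same locus, OS01G0605000, gave 1.37 FPKM in PGD1:Roc10, against 0.292 FPKM in NT, and the BCS1-like gene held 96.8% of the FPKM of the locus in PGD1:Roc10 and 95.5% in NT.

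OS05G0588900, also named for BCS1, is described as similar to the mitochondrial chaperone itself. It hardly differed, with 2.75 FPKM in PGD1:Roc10 and 2.30 in NT, a ratio of 1.20. It shares its locus (chromosome 5, 29327060 to 29334853) with another AAA-type gene, OS05G0588850, which gave 0.819 FPKM in PGD1:Roc10 and 1.21 in NT. Another row of that locus, OS05G0588800, gave 1.34 FPKM in PGD1:Roc10 and 1.97 in NT. Of the 20 genes that averaged at least 1 FPKM, OS05G0588850 had the lowest difference, -0.28. The 2 genes named for BCS1 thus had differences of 2.57 and 0.18, and the deposited evidence for their reading frames names the same database protein.

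Beside the BCS1-like gene, 3 others of the higher set reached more than 10 FPKM in PGD1:Roc10, all described by the AAA-type core domain alone. OS03G0802500 (chromosome 3, 33482035 to 33484111) gave 38.2 FPKM in PGD1:Roc10, against 10.5 FPKM in NT, a ratio of 3.65. OS01G0623500 (chromosome 1, 24894705 to 24899506) gave 24.5 FPKM in PGD1:Roc10, against 9.12 FPKM in NT, a ratio of 2.68. OS06G0697600 (chromosome 6, 29184406 to 29186298) gave 19.1 FPKM in PGD1:Roc10, against 1.86 FPKM in NT, a ratio of 10.3. Its difference of 2.81 was the highest of all 28 genes and ranked 95 among the 21875 rows. The authors' deposited table called OS03G0802500 (q = 0.0111) and OS01G0623500 (q = 0.0287) significant, and it gave OS06G0697600 q = 0.0621 with no call. These values come from 1 library per group and were not recomputed.

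The authors' deposited table thus called 3 of the 28 genes, all higher in PGD1:Roc10, out of 21 that it tested. Among its 24683 tested rows, 0.474% were called higher and 0.105% lower.

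The remaining 4 genes of the higher set had low values in NT. OS12G0431100 (chromosome 12, 13879363 to 13881474) gave 7.19 FPKM in PGD1:Roc10, against 1.93 FPKM in NT, a ratio of 3.72. OS01G0297200 (chromosome 1, 10891809 to 10893684) gave 3.03 FPKM in PGD1:Roc10, against 0.0606 FPKM in NT. OS03G0584400 (chromosome 3, 21544809 to 21546217) gave 2.23 FPKM in PGD1:Roc10, against 0.114 FPKM in NT. OS06G0697500 (chromosome 6, 29180263 to 29181822) gave 1.21 FPKM in PGD1:Roc10 and was listed at 0 in NT, so no ratio is given. In the authors' deposited table these 4 had q = 0.429, 0.999, 0.999 and 0.115 and no call. For the 3 lowest genes a ratio rests on an NT value of a small fraction of 1 FPKM, and with a pseudocount of 5 all 4 fell below the 2-fold line, with differences of 0.81, 0.67, 0.50 and 0.31.

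**Figure D2:**
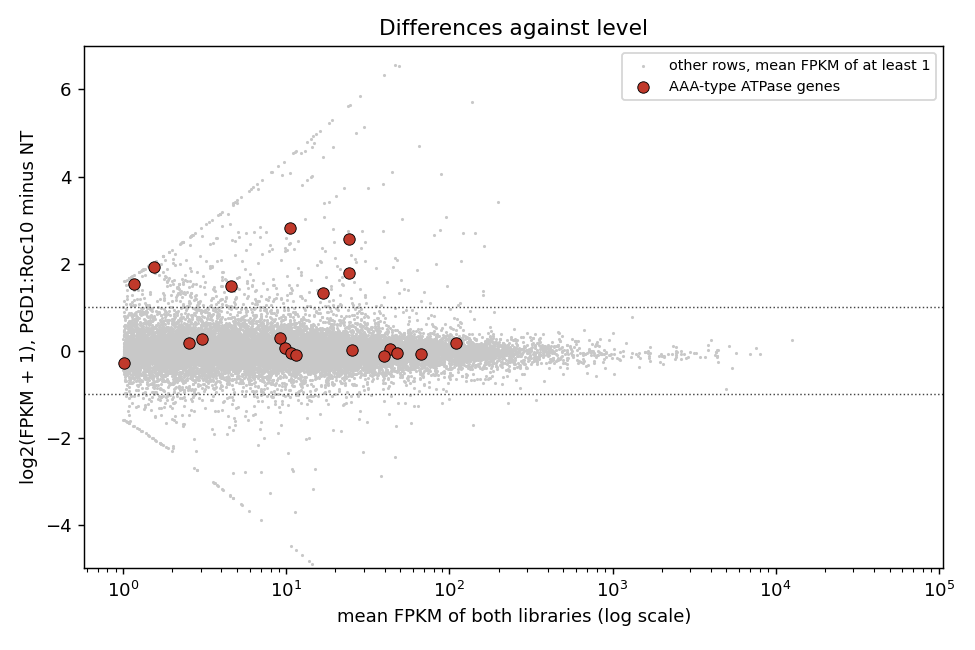
Difference in log2(FPKM + 1), PGD1:Roc10 minus NT, against the mean FPKM of both libraries on a log scale, for the 20 AAA-type ATPase genes (red) and all other rows (grey) with a mean of at least 1 FPKM; dotted lines mark 2-fold and 50 grey rows lie outside the vertical axis, which runs between -5 and 7. The 7 genes above the upper line span mean levels of 1.17 to 24.3 FPKM, and the other 13 lie within the grey band.

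The most abundant members hardly differed between the libraries. OS07G0187400 (chromosome 7, 4663425 to 4667478), the highest of the 28, gave 116 FPKM in PGD1:Roc10 and 103 in NT, a ratio of 1.13. OS11G0661400 (chromosome 11, 26552933 to 26554756) gave 65.4 FPKM in PGD1:Roc10 and 69.1 in NT. OS07G0672500 gave 47.1 FPKM in PGD1:Roc10, against 48.9 in NT. The 5 genes with at least 40 FPKM in NT, which also include OS06G0714500 and OS03G0344700, had ratios between 0.920 and 1.13 and summed to 310.3 FPKM in PGD1:Roc10 and 304.6 in NT. OS01G0605100 and OS03G0802500 thereby ranged with these genes in PGD1:Roc10, while in NT both lay below 11 FPKM.

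Outside the higher set, the genes between 8 and 26 FPKM in NT also had small differences. OS06G0155600 gave 25.4 FPKM in PGD1:Roc10 and 25.3 in NT. OS06G0109400 gave 11.0 FPKM in PGD1:Roc10 and 11.9 in NT, and OS09G0563800 gave 10.4 FPKM in PGD1:Roc10 and 10.8 in NT. OS02G0740300 gave 10.04 FPKM in PGD1:Roc10 and 9.57 in NT. OS07G0192000 had the highest difference outside the higher set, 0.29, with 10.1 FPKM in PGD1:Roc10 and 8.08 in NT. Lower still, OS05G0584600 gave 3.39 FPKM in PGD1:Roc10, against 2.67 in NT. The 13 genes that averaged at least 1 FPKM and were not 2-fold higher had ratios between 0.675 and 1.27.

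Another 7 genes lay below 1 FPKM in both libraries and summed to 0.990 FPKM in PGD1:Roc10 and 0.854 in NT. OS12G0639500 was the highest of them, with 0.465 FPKM in PGD1:Roc10 and 0.434 in NT, and OS03G0802600 gave 0.262 FPKM in PGD1:Roc10 and 0.338 in NT. OS01G0226400 gave 0.0569 FPKM in PGD1:Roc10 and 0.0819 in NT. OS09G0432300 and OS12G0470700 gave 0.174 and 0.0317 FPKM in PGD1:Roc10 and were listed at 0 in NT. OS07G0192700 and OS12G0639400 were listed at 0 in both. A difference in these genes was not detectable in values this low.

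The deposited reading-frame evidence puts some members together. The table names the same database protein for 5 groups of members, 11 genes in all, which is a hint of close sequence and not a measure of it. In 4 of the 5 groups at least 1 gene was 2-fold higher, and in 1 group every gene was. With 8 of all 28 genes 2-fold higher, a group that holds at least 1 of them is not rare, and these counts were not tested. The group with every gene higher is the pair OS06G0697500 and OS06G0697600, with loci 2584 bp apart on chromosome 6. Of this pair OS06G0697500 had a mean below 1 FPKM and was listed at 0 in NT. In contrast OS03G0802500, at 38.2 FPKM in PGD1:Roc10 and 10.5 in NT, shares its evidence with OS03G0802600 and OS07G0192000. The first of these begins 3545 bp away and stayed below 0.4 FPKM in both libraries, too low for a difference to be seen, and the second had a ratio of 1.25. OS12G0431100, with a ratio of 3.72, shares its evidence with OS12G0639500, which stayed below 0.5 FPKM in both, where a difference was not detectable. The fifth group, OS03G0344700 and OS11G0661400, held abundant genes with ratios of 0.920 and 0.948. No sequences were compared, so how alike the genes of a group are is unknown. How the authors' counting divided reads between genes of close sequence is not given in the sources used here, so values within a group may be less certain.

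Of the 8 higher genes 7 had a short locus, a property that the selection did not use. The locus column spans introns and, where genes overlap, neighbouring rows. Most of the longer loci hold another row and most of the shorter ones do not, and these properties were not separated. Loci of the 28 genes ran between 726 and 11656 bp, with a gap between 2112 and 4054 bp that puts 14 genes on each side. Of the 14 with shorter loci, 7 were at least 2-fold higher, and of the 14 with longer loci 1 was, OS01G0623500 at 4802 bp. Among those of at least 1 FPKM in NT, which leaves out the higher genes OS01G0297200, OS03G0584400 and OS06G0697500, the counts were 4 of 6 and 1 of 12. Short loci differed more often in the whole table too. Of the 5999 rows with loci up to 2112 bp and at least 1 FPKM in NT, short RNAs left out, 2.15% were at least 2-fold higher and 2.9% lower. Of the 15438 such rows with longer loci 0.829% were higher and 0.531% lower. The split was chosen after the values were seen and was not tested. The 2 short genes of that level outside the higher set were OS07G0192000 and OS11G0661400.

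**Figure D3:**
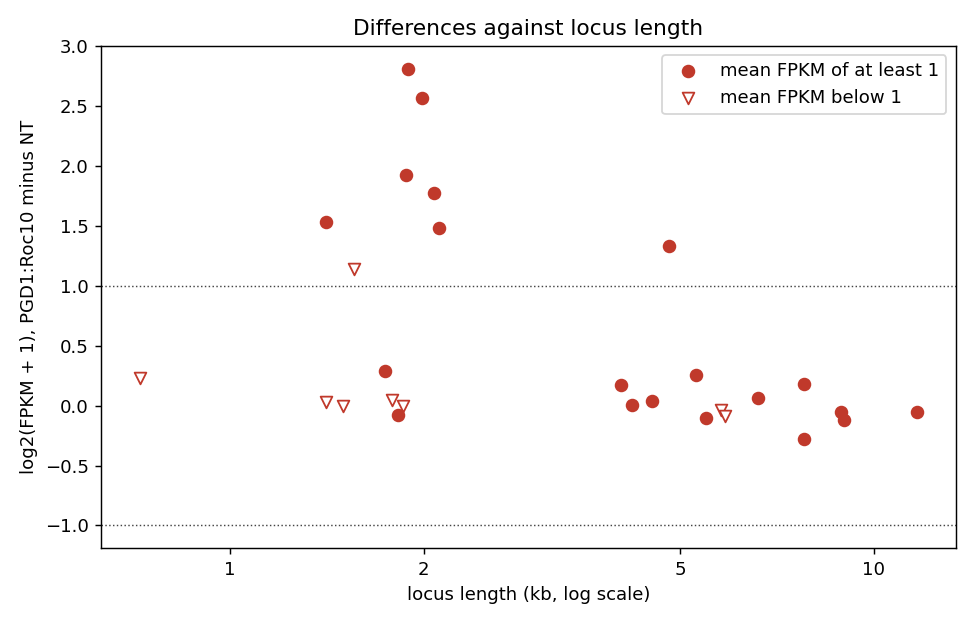
Difference in log2(FPKM + 1), PGD1:Roc10 minus NT, against the length of the deposited locus in kb on a log scale, for the 28 AAA-type ATPase genes; filled circles had a mean of at least 1 FPKM, open triangles less, and dotted lines mark 2-fold. Of the 8 genes above the upper line, 7 had loci of 1409 to 2112 bp and 1 had a locus of 4802 bp.

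The higher genes were spread over 4 chromosomes, and the rows beside them mostly differed little. There were 3 on chromosome 1, 2 on chromosome 3, 2 on chromosome 6 and 1 on chromosome 12, while the 28 genes lay on 9 chromosomes. The nearest rows on either side with a mean of at least 1 FPKM, at distances between 264 and 128472 bp, made 14 rows outside the family. On the log2(FPKM + 1) scale 0 of these 14 were 2-fold higher or lower, and their median difference was 0.06. Over all rows at that mean 2.29% were 2-fold higher and 1.29% lower, so 0 of 14 is near the background and says little about the neighbourhood. The highest was 0.98, in the hypothetical gene OS06G0698000 beside the chromosome 6 pair, with 7.78 FPKM in PGD1:Roc10, against 3.44 in NT, a plain ratio of 2.26. That gene passed 2-fold with pseudocounts of 0.1 and 0.5. The lowest was -0.61, in OS12G0433066, 128472 bp from OS12G0431100, with 1.67 FPKM in PGD1:Roc10 and 3.07 in NT.

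Of the 8 higher genes 3 share a locus with another row, and they are the 3 that the authors' deposited table called. OS01G0623550, a hypothetical gene at the locus of OS01G0623500, gave 27.9 FPKM in PGD1:Roc10, against 9.83 FPKM in NT. The values of these 2 rows were close in both libraries, and how reads of that locus were divided between them is not given in the sources used here, so OS01G0623500 is the least certain of the 3. At the locus of OS03G0802500 the other row, OS03G0802400, gave 0.0932 FPKM in PGD1:Roc10 and was listed at 0 in NT. The strand setting of the counting is likewise not given, so a gene and an overlapping partner on the other strand cannot be told apart. Leaving out every gene that shares its locus with another row kept 9 genes that averaged at least 1 FPKM, of which 4 were at least 2-fold higher and 0 lower. Of these 4, OS01G0297200 and OS03G0584400 reached that mean through PGD1:Roc10 alone, and with at least 1 FPKM in NT 2 of 7 were 2-fold higher. The share over all rows that are alone at their locus was not computed, so these counts have no background beside them.

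**Figure D4:**
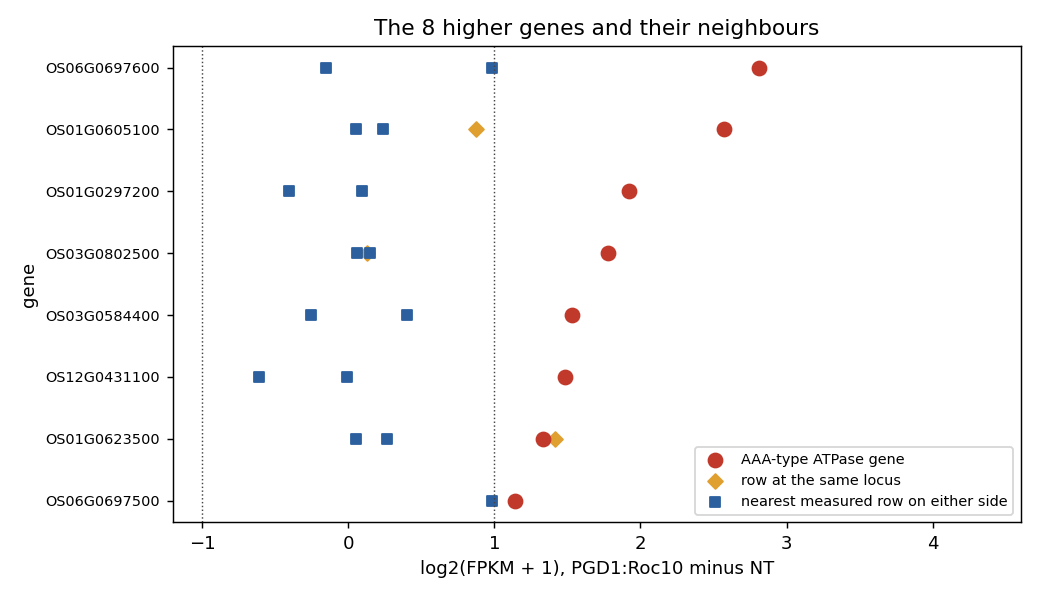
Difference in log2(FPKM + 1), PGD1:Roc10 minus NT, of the 8 higher AAA-type ATPase genes (circles), of rows that share their locus (diamonds) and of the nearest rows on either side with a mean of at least 1 FPKM (squares); dotted lines mark 2-fold. The squares lie between -0.61 and 0.98, and 1 diamond, OS01G0623550, lies beyond the 2-fold line together with its neighbour OS01G0623500.

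Other AAA+ proteins named in the table gave no 2-fold difference at a mean of at least 1 FPKM. A list of related families by name held 45 rows, 37 of them averaging at least 1 FPKM, and 0 of the 37 were 2-fold higher or lower. Over all 21875 rows at that level 2.29% were 2-fold higher and 1.29% lower, so 0 in a list this short is near the background. Their differences ran between -0.39 and 0.42 with a median of -0.03. The list took in partner proteins that are no ATPases, such as Clp proteolytic subunits and peroxins, and without these 0 of 26 differed 2-fold. The FtsH proteases, membrane-bound AAA enzymes that remove damaged photosystem proteins in chloroplasts, included the most abundant AAA+ genes of these lists. FTSH2 gave 719 FPKM in PGD1:Roc10 and 765 in NT, and FTSH1 gave 643 FPKM in PGD1:Roc10 and 673 in NT. CDC48-type segregases, which pull proteins out of membranes and complexes, had 4 rows with differences between -0.12 and 0.05. A Lon protease-like gene, OS09G0533400, of a family of ATP-dependent proteases, gave 252 FPKM in PGD1:Roc10 and 231 in NT. A Rubisco activase-like gene (OS04G0658300) gave 28.1 FPKM in PGD1:Roc10, against 36.01 in NT. The heat shock disaggregase CLPB1 had the highest difference of the list, 0.42, with 2.33 FPKM in PGD1:Roc10, against 1.48 in NT.

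The regulatory particle of the proteasome, whose base is a ring of AAA ATPases, also gave 0 of 14 rows beyond 2-fold at a mean of at least 1 FPKM. That count is again near the shares over all rows, 2.29% higher and 1.29% lower. By description 7 of the 14 are ATPase subunits, and all 7 had the higher value in PGD1:Roc10, with differences between 0.13 and 0.30. That direction turned for most with the total FPKM made equal, where the median of the 7 was -0.03 and 3 of the 7 had the higher value in PGD1:Roc10. With a mean below 1 FPKM, the non-ATPase subunit row OS01G0974900 gave 1.81 FPKM in PGD1:Roc10 and was listed at 0 in NT. Rows whose description spells AAA otherwise, and which the selection therefore missed, numbered 11. Of these 5 had a mean of at least 1 FPKM, with differences between -0.12 and 0.14. OS04G0617600 and OS09G0515100 among them are CDC48 rows already counted in the list of related families. With these 5 added to the AAA-type ATPases, 7 of 25 genes were at least 2-fold higher, beside 2.29% of all rows at that mean. Of the 7, OS01G0297200 and OS03G0584400 reached that mean through PGD1:Roc10 alone.

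Genes of the process that BCS1 serves in yeast did not differ 2-fold either. Of 13 rows matched as complex III or Rieske proteins, 11 had a mean of at least 1 FPKM and 0 differed 2-fold, with differences between -0.37 and 0.40. For a list of 11, 0 is near the background of 2.29% higher and 1.29% lower over all rows at that mean. The Rieske subunit-like genes OS02G0520800 and OS04G0398500 gave 63.4 and 38.8 FPKM in PGD1:Roc10 and 55.7 and 36.2 in NT. The pattern also took in the chloroplast protein Tic55 (OS02G0792800), at 117 FPKM in PGD1:Roc10 and 152 in NT, and a row named only for Rieske. Of the alternative oxidases, mitochondrial enzymes that bypass complex III, OS02G0318100 gave 2.55 FPKM in PGD1:Roc10 and 1.22 in NT, a plain ratio of 2.09 and a difference of 0.68 that passed 2-fold with a pseudocount of 0.1. The other, OS03G0847500, gave 7.31 FPKM in PGD1:Roc10 and 7.07 in NT.

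**Figure D5:**
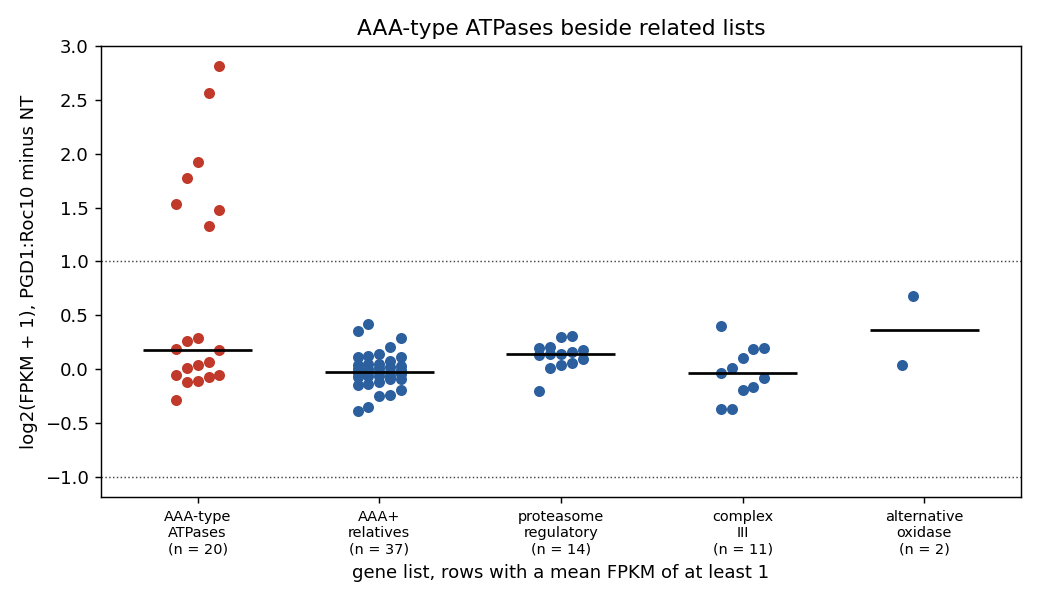
Difference in log2(FPKM + 1), PGD1:Roc10 minus NT, of each gene with a mean of at least 1 FPKM in the AAA-type ATPases (red) and in 4 related lists (blue); horizontal bars are medians and dotted lines mark 2-fold. At this pseudocount 7 of 20 AAA-type ATPases lie beyond a dotted line, beside 0 of 37, 0 of 14, 0 of 11 and 0 of 2. Of the 7, OS01G0297200 and OS03G0584400 reached that mean through PGD1:Roc10 alone. With at least 1 FPKM in NT, 5 of 18 AAA-type ATPases were 2-fold higher, beside 1.19% of all rows so selected. Over all rows at that mean 2.29% were 2-fold higher and 1.29% lower, so counts of 0 in the 4 lists are near the background. With a pseudocount of 0.1, 1 of the 2 alternative oxidases also passed 2-fold.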

How the data were processed

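RNA from leaves of 2-week-old seedlings gave strand-specific sequencing libraries, 1 for PGD1:Roc10 and 1 for NT, per the labels' protocols. Reads were trimmed, aligned with TopHat 2.0.12 to IRGSP-1.0 (Ensembl Plants release 23) and quantified with Cufflinks and Cuffdiff 2.2.1, per the file headers. The deposited values are FPKM by the authors. For the library normalization option the setting is not given in the sources used here. Deposited p-values and q-values are the authors' from Cuffdiff without replicates; q-values were copied and never recomputed. Read and mapping numbers of the deposited summary were used only for depth.

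Groups came from the labels, and value columns were matched through the library code in them. Genes were selected by description, and both members and lists were chosen with earlier results of these data known. Differences used a pseudocount of 1, and a mean of at least 1 FPKM defined the rows counted unless stated. No test was possible with 1 library per group. The members named by rule are those with a BCS1 description, the 12 highest and 12 lowest differences, the 10 most abundant, those called by the authors and those at 0 in one library and at 1 FPKM or more in the other. Genes of the related lists and other named genes were picked with their values known. Those of the lists are not always the ones with the largest differences. Coordinates are the deposited loci on IRGSP-1.0, whose start convention is not given. None of the 28 gene identifiers was found in the RefSeq gene table supplied, so it was not used. Alternatives were other pseudocounts, scalings, low-value filters, fold thresholds and handling of shared or neighbouring loci. Python 3.11.15, NumPy 2.4.6, pandas 2.3.3 and matplotlib 3.10.9 were used, and the counting steps were tested on simulated data.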

Additional observations from a re-analysis of the deposited data

How the results depend on the processing

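The number of AAA-type ATPases at least 2-fold higher was 7 with pseudocounts of 0.1 and 0.5, in all 3 other scalings, with 1 gene per run of neighbours and at a 1.5-fold threshold, 8 without a filter and 5 with at least 1 FPKM in NT. It was 4 with a pseudocount of 5, at a 3-fold threshold, at a mean of at least 5 FPKM (of 14 genes) and without genes that share a locus (of 9), and 2 of 7 with at least 1 FPKM in NT as well. Over all rows, 2.29% were 2-fold higher at the main setting and 1.19% with at least 1 FPKM in NT. Without a filter the share was 1.4%, short RNAs left out. For the other settings the share over all rows was not computed, so these counts have no background beside them. No AAA-type ATPase was 2-fold lower under any alternative tried, and 1 BCS1-like gene was 2-fold higher under each alternative that kept one. Leaving out shared loci removed both BCS1-like genes. Genes with the higher value in PGD1:Roc10 numbered 14 of 20, 10 of 20 with total FPKM made equal, 9 of 14 at a mean of at least 5 FPKM, 8 of 9 without shared loci and 6 of 7 with at least 1 FPKM in NT as well. The median of 0.18 became 0.049 at a mean of at least 5 FPKM, 0.29 without shared loci and 0.063 with rows that spell AAA otherwise, and it changed sign to -0.0022 with total FPKM made equal, which shifted the median over all rows to -0.20. The median of the 2 BCS1-like genes, 1.38, was 1.49 and 1.07 with pseudocounts of 0.1 and 5, 1.20 under the same-total scaling and 2.57 at a mean of at least 5 FPKM, where 1 gene remained. Of the 2 alternative oxidases, 1 passed 2-fold with a pseudocount of 0.1. At a mean of at least 1 FPKM, none of the other related lists had a gene beyond 2-fold with other pseudocounts or scalings. Of the 14 rows beside the higher genes, 1 passed 2-fold with pseudocounts of 0.1 and 0.5 and with totals equal over rows other than short RNAs; of the 34 beside the others, 2 did under these settings and 0 with a pseudocount of 5. The filters act by leaving fewer genes. By arithmetic, a larger pseudocount makes differences smaller, most in low genes, and the same-total scaling lowers the differences of rows above 0. Why the total FPKM of the libraries differ was not tested. The filters on NT, the alternatives for related lists and neighbours, the rows that spell AAA otherwise and the scaling without short RNAs were chosen after seeing the data. Of 126 values of single named genes under other pseudocounts and scalings, 4 crossed the 2-fold line, all with a pseudocount of 5. Replicates could not be left out. No paired analysis was possible because each group has 1 library. The depth behind single FPKM values is unknown, which limits the genes below 1 FPKM most.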

Other observations

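The rows nearest to the 20 AAA-type ATPases that were not 2-fold higher were looked at in the same way as those beside the 8 that were. Of 34 such rows with a mean of at least 1 FPKM, 1 was at least 2-fold higher and 0 were 2-fold lower, with a median difference of 0.0045. These counts are near the shares over all rows at that mean, 2.29% higher and 1.29% lower. OS11G0661400, an abundant member with 65.4 FPKM in PGD1:Roc10 and 69.1 in NT, has a non-protein coding transcript, OS11G0661350, 464 bp away. That transcript gave 19.9 FPKM in PGD1:Roc10 and 9.53 in NT, a plain ratio of 2.09 and a difference of 0.99. On its other side, at 239680 bp, the hypothetical gene OS11G0664800 gave 12.9 FPKM in PGD1:Roc10, against 4.63 in NT, the highest difference of the 34 at 1.30. The lowest, -0.77, belonged to OS05G0584300 beside OS05G0584600, with 7.10 FPKM in PGD1:Roc10, against 12.8 in NT. These neighbours were chosen after their values were seen.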
